A study of Mus musculus with 2 samples.

Results

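The genes of splicing factors and heterogeneous nuclear ribonucleoproteins (hnRNPs) were examined for Brg1 binding in a mouse medulloblastoma. The set holds 50 of the 21627 protein-coding genes of the RefSeq annotation on mm10 with a position on an autosome or on chromosome X. It was chosen by name, with earlier results of these data known: SR proteins, hnRNPs and regulators of splicing in neurons and other tissues. Brg1, encoded by Smarca4, is the ATPase of the BAF chromatin remodelling complex. The tumours arose spontaneously in mice with the genotype CAG-CreER, Rosa26-SmoM2, in which a recombinase driven by the broadly active CAG promoter switches on SmoM2, an activated form of the Hedgehog transducer Smoothened. The labels give no age and no treatment. There was 1 ChIP library, made from dissociated tumour cells with the J1 antibody, which recognises both Brg1 and its paralogue Brm, and 1 input library without antibody that is not analysed here. Every value below therefore comes from 1 library, and there is no error between animals.

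The ChIP library is given as a list of 5727 enriched regions (islands), each with a whole number taken as the reads in it, with a median of 68 reads (interquartile range 56 to 86) and a median width of 2200 bp. How deeply the library was sequenced is not known from the list. The intervals on reads are exact Poisson 95% intervals and, like the Wilson intervals on shares, cover counting error only. Regions below the authors' caller's threshold are not listed, and absence from the list is no evidence that Brg1 was absent. With regard to the labelled tissue, all 10 granule lineage and Hedgehog target genes looked up had an island within 5 kb, against 16.9% of all protein-coding genes. Among them were Atoh1 with 89 reads and Gli1 with 131. Of 7 marker genes of other cells that a tumour can hold, 1 did (14.3%, near the share of all genes), the myelin gene Mbp with 64 reads. Both lists were chosen with earlier results of these data known, so they are no independent check of the tissue.

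Pre-mRNA splicing removes introns through the spliceosome, and the choice of splice sites is steered by RNA-binding proteins. SR proteins carry a domain rich in arginine and serine and mostly promote the use of the exons they bind, while many hnRNPs favour skipping. In developing neurons a switch from Ptbp1 to Ptbp2, together with the Rbfox, Nova, Celf, Elavl and Srrm4 proteins, sets neuronal exon choice. Many genes of SR proteins and hnRNPs are expressed in every cell type and are regulated through their own alternative exons.

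Brg1 islands were found at 30 of the 50 genes (60%, Wilson 95% interval 46.2 to 72.4), counting any island within 5 kb of the gene, against 16.9% of all protein-coding genes. Since the genes were chosen with earlier results of these data known, this share only describes the set. The 30 genes held 47 distinct islands with 39 to 153 reads each and a median of 72 reads. A gene-end island, with any part within 1 kb of either end of the gene, was present at 21 of the 50 genes against 9.81% of all genes. An interior island, inside the gene and further than that from both ends, was present at 12 against 6.7%. A flanking island, outside the gene by 1 to 5 kb, was present at 3 against 2.49%. Both gene-end and interior islands were present at 4 genes, Celf4, Rbfox2, Mbnl2 and Elavl3.

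**Figure D1:**
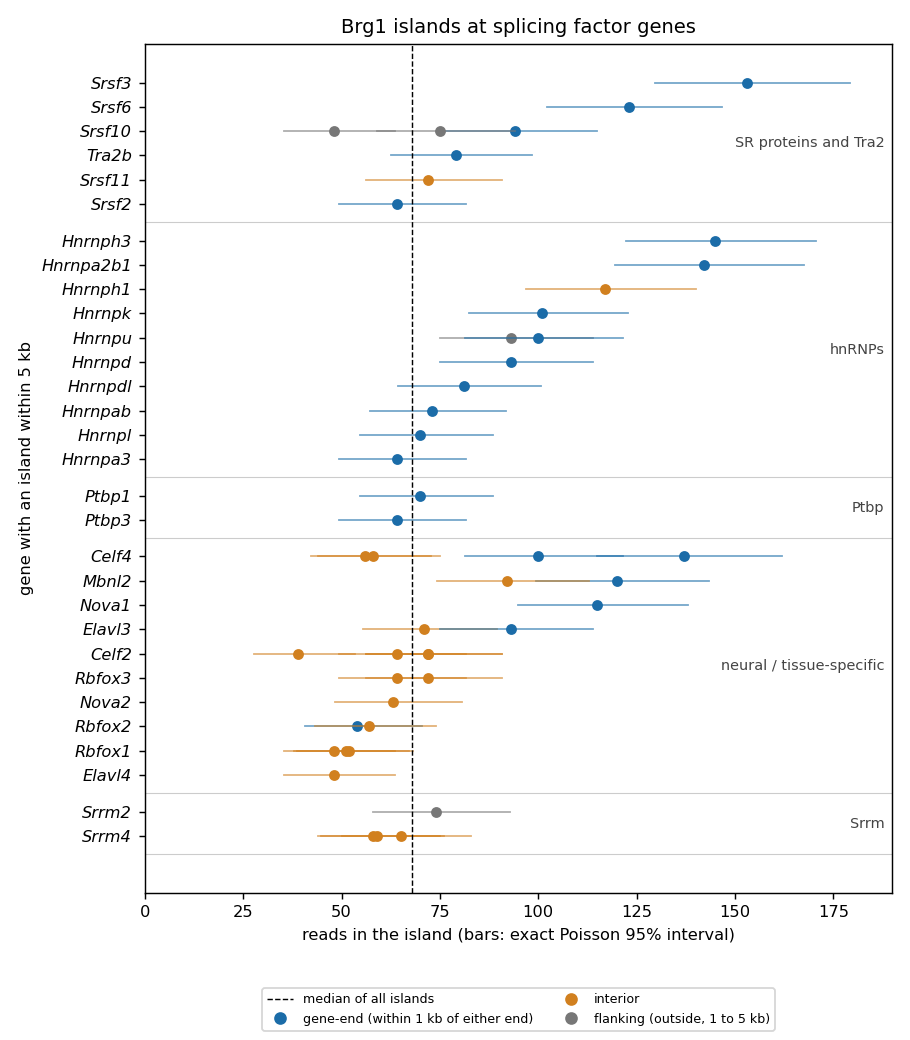
Reads in each island within 5 kb of a member gene (x axis, with exact Poisson 95% intervals as bars) for the 30 genes with an island (y axis), grouped by role and coloured by position; the dashed line is the median of 68 reads over all 5727 islands. The islands with over 110 reads lay at gene ends, apart from that of Hnrnph1, and most interior islands lay to the left of the line.

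The 22 gene-end islands held a median of 93.5 reads (54 to 153), and 18 of them were at or above the median of the whole list. The 21 interior islands held a median of 63 reads (39 to 117), and 7 of them were at or above it. Over all protein-coding genes the corresponding medians were 71 reads for 1861 gene-end islands and 68 for 2211 interior islands. Width moved with reads: the median width was 3200 bp for the members' gene-end islands and 2000 bp for their interior islands. The median density was 6.15 reads per 200 bp at the gene ends and 6.22 in the interiors. The higher counts at the ends thus went with wider islands, at about the same median density.

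An annotated transcription start was available for 46 of the 50 genes, the exceptions being Hnrnpll, Ptbp3, Rbfox2 and Celf4. An island lay within 1 kb of an annotated start in 21 of the 46 (45.7%), against 9.53% of all protein-coding genes with such an entry. All 18 of these members with a gene-end island had it at a start, and none had one at the other end alone. Among all genes with an entry, 1456 of 1669 with a gene-end island had it at a start (87.2%). The other 3 start islands, at Hnrnph1, Srsf11 and Elavl4, counted as interior because these genes have RefSeq models that begin further upstream. At Hnrnph1 all 5 annotated starts lay inside the island. At Srsf11 the island covered the inner of 2 starts and ended 4370 bp from the outer one. At Elavl4 it lay deep in the gene, 39 bp downstream of the innermost of 4 starts.

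**Figure D2:**
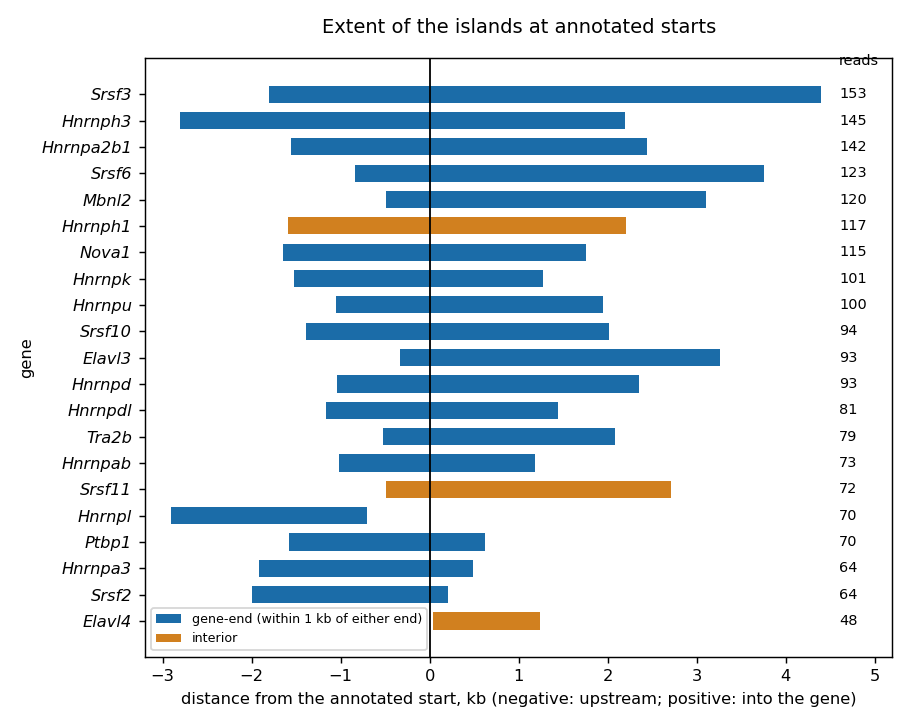
Extent of the 21 islands within 1 kb of an annotated start, as distance in kb from the start nearest to the island's middle (x axis; negative is upstream), 1 bar per gene (y axis), with the reads at the right. The islands of Srsf3, Srsf6, Mbnl2 and Elavl3 reached over 3 kb into the gene. That of Hnrnpl lay wholly upstream of its 1 annotated start, which is inside the gene, and spanned the end of the gene's RefSeq extent. That of Elavl4 lay wholly downstream of the start used.

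Of these islands, 19 covered the start itself. Their middle lay downstream of it, on the transcribed side, in 14 of 19 (73.7%) and the median offset was 314.5 bp. Over all 1368 islands that cover a protein-coding start, the middle was downstream in 62.0% and the median offset was 152 bp. There the offset was taken from the covered start nearest the middle, of whichever gene. For members it was taken from the member's own start, so the measures differ where an island covers a second gene's start. The island of Elavl3 reached 333 bp upstream and 3266 bp downstream, and that of Mbnl2 490 and 3109 bp. In the opposite direction, the island of Srsf2 reached 1992 bp upstream and 207 bp downstream, and that of Hnrnpa3 1915 and 484 bp. On that upstream side each also covered the start of a gene transcribed the other way, Mfsd11 at Srsf2 and the lncRNA gene Gm39859 at Hnrnpa3.

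The sequences before the start are shown for the 4 genes with the most reads in an island covering an annotated start, which is a rank by reads and not by reads for the width. For contrast, the same stretch is shown for 3 genes whose islands counted as interior: Hnrnph1, Srsf11, with its covered and its uncovered start, and Rbfox3, whose only annotated start lay 20955 bp from the nearest island. That start of Rbfox3 lies inside the gene, whose RefSeq extent reaches further upstream, so it need not be the gene's outermost start. Each is the 250 bases before the start, 5′ to 3′ on the gene's strand, from RefSeq on mm10. Capitals mark letters that match a searched motif on either strand. These were the ETS core with the letters CCGGAAG, the GC box with GGGCGG, the NF-Y box with CCAAT, the TATA box with TATAAA, the GLI motif with GACCACCCA and the E-box with CANNTG, and by name the palindromes of NRF1 and ZBTB33. Matches of different motifs can touch or overlap, as CCAAT and an E-box do at the beginning of the Hnrnph1 stretch.
Srsf3 (chr17:29032410-29032659, + strand): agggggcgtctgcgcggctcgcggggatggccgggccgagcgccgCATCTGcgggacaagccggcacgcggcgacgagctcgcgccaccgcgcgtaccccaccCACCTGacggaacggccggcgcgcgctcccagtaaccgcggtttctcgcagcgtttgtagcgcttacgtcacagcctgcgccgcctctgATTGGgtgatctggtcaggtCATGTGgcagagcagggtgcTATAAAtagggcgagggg
Hnrnph3 (chr10:63023850-63024099, - strand): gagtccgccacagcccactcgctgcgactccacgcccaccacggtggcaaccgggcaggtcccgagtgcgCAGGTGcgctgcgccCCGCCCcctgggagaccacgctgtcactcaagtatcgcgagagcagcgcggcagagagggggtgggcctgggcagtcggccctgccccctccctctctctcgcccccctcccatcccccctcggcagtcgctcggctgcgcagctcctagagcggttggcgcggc
Hnrnpa2b1 (chr6:51469895-51470144, - strand): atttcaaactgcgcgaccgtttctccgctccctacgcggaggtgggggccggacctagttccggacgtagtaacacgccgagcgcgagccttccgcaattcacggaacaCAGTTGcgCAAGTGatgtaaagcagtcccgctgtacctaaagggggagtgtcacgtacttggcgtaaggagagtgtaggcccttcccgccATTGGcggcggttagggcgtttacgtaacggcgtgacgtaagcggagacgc
Srsf6 (chr2:162931258-162931507, + strand): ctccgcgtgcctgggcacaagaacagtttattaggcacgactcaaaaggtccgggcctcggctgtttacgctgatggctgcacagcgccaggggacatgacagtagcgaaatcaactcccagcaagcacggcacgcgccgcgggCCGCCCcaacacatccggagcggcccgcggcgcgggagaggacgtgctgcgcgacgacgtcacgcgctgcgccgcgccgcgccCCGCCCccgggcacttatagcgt
Hnrnph1 (chr11:50376740-50376989, + strand): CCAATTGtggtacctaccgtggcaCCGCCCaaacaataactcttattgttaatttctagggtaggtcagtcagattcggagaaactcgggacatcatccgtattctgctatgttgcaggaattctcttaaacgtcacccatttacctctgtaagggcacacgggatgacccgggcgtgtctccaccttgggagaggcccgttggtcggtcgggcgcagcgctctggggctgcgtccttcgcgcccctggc
Srsf11 covered start (chr3:158031749-158031998, - strand): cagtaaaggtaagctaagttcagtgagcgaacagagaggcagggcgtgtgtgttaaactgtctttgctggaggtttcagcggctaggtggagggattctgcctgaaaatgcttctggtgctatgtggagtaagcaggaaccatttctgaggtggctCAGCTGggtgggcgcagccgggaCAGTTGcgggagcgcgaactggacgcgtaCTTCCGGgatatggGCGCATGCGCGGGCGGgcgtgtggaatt
Srsf11 uncovered start (chr3:158036607-158036856, - strand): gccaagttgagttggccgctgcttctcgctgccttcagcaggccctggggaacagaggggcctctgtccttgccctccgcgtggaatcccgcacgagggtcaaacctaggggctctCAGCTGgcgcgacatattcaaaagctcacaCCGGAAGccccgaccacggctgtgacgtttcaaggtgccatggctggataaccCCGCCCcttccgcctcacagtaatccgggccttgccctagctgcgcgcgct
Rbfox3 (chr11:118761042-118761291, - strand): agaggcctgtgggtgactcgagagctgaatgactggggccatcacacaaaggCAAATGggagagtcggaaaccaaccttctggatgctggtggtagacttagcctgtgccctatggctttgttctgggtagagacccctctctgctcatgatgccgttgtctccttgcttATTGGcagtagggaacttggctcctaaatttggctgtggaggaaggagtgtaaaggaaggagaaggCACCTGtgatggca

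The stretches at Srsf3, Hnrnph3, Hnrnpa2b1, Srsf6, Hnrnph1 and the covered start of Srsf11 lay wholly inside the island. They held 35, 25, 29, 35, 17 and 16 CpG. For Hnrnph1 this is the outermost start, with the fewest CpG of the 5 starts inside its island, which held 17 to 25. For Hnrnpa2b1 it is the outer of 2 starts, with 29 and 28 CpG. The uncovered start of Srsf11 held 18 CpG and the start of Rbfox3 held 3. Across the 73 annotated starts of the 46 genes, the 250 bases held a median of 23 CpG at the 28 starts with an island within 1 kb and 19 at the 45 starts without. Over all protein-coding genes these medians were 19 and 9. By the median, the starts of the splicing genes without an island were thus as rich in CpG as all starts with one. Hnrnpa0, with 46 CpG and no island within 5 kb, had the highest number among them.

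Among genes whose richest start held 20 or more CpG, 14 of 29 members had a start island, against 19.8% of all such genes. With 10 to 19 CpG, 7 of 15 members had one, against 11.2%. The only 2 members with fewer, Rbfox1 and Rbfox3, had none, against 2.74% of all genes in that class. The letters CCAAT were present at 18 of 28 member starts with an island, against 34.8% of all starts with an island, and at 16 of 45 member starts without one. A GC box was present at 47 of the 73 member starts, against 43% of all starts. It was present at 18 of the 28 with an island, against 65.2% of all starts with one, and at 29 of the 45 without. E-box letters were present at 39 of the 73 member starts, against 62.8% of all starts, but at 18 of the 28 with an island, against 50.5% of all starts with one. The TATA box likewise stood at 6 of 73 against 11.7%, and at 3 of 28 against 6.09%. The ETS core was present at 9 of 73 against 9.07%, and at 2 of 28 against 9.5%. The NRF1 letters were present at 2 of 73 against 1.08%, and at 1 of 28 against 1.98%. No member start held the GLI letters or those of ZBTB33, which were present at 0.162% and 0.57% of all starts. Several starts of 1 gene share sequence, so these counts are not of independent promoters.

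SR proteins and the related Tra2 proteins, which bind exonic enhancers, had islands at 6 of 13 genes, and at each of the 6 one of them lay at a start. Srsf3, the smallest SR protein and a factor in both splicing and mRNA export, had 153 reads (129.7 to 179) in an island of 6.2 kb (chr17:29030856-29037055). That count is at percentile 97.2 of the list, but among the 11 islands of that width it is at percentile 18.2, and the lowest of them holds 152 reads. Srsf6, a regulator of exon inclusion, had 123 reads (102 to 147) over 4600 bp (chr2:162930665-162935264). Srsf10, a splicing repressor when dephosphorylated, had 3 islands: 94 reads (76 to 115) at its start, and flanking islands of 48 reads before the gene and 75 reads beyond its far end. The last covered the start of the neighbouring gene Pnrc2. Tra2b had 79 reads (62.5 to 98.5) at its start, Srsf11 72 at its inner start and Srsf2 64 (49.3 to 81.7). The intervals of Srsf3 and Srsf6 did not overlap those of Tra2b, Srsf11 and Srsf2, whose islands were narrower. Srsf1, Srsf4, Srsf5, Srsf7, Srsf9, Srsf12 and Tra2a had no island within 5 kb. Closely related pairs therefore differed in the list: Srsf3 had an island while the nearest to Srsf7 lay 271 kb away, and Tra2b had one while the nearest to Tra2a lay 401 kb away.

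Among the hnRNPs, abundant nuclear proteins that package and steer pre-mRNA, 10 of 17 genes had islands, and each of the 10 had one within 1 kb of a start. Hnrnph3 had 145 reads (122 to 171; chr10:63021653-63026652) and Hnrnpa2b1, a binder of mRNA that also acts in its transport, had 142 (119.6 to 167; chr6:51467402-51471401). Hnrnph1, a binder of G-rich sequences, had 117 (96.8 to 140.2; chr11:50376699-50380498) and Hnrnpk, a binder of C-rich sequences, had 101 (82.3 to 123; chr13:58400840-58403639). Hnrnpu, a scaffold-associated protein of the nucleus, had 100 reads (81.4 to 122) across its start and 93 in a flanking island that covered the start of Cox20. The other 5 genes held 64 to 93 reads: Hnrnpd, an AU-rich element binder, had 93 and its relative Hnrnpdl 81, followed by Hnrnpab with 73, Hnrnpl with 70 and Hnrnpa3 with 64. For their width, the islands of Hnrnpk and Hnrnpa2b1 were among the fuller ones of the list, at percentiles 93.3 and 90.5 for reads among islands of the same width, while Hnrnpa3 was at 17.3. No island lay within 5 kb of Hnrnpa0, Hnrnpa1, Hnrnpc, Hnrnpf, Hnrnpll, Hnrnpm or Hnrnpr. Hnrnpa1 and Hnrnpa2b1, relatives with similar RNA-binding domains, thus fell on different sides, as did Hnrnpf and its relatives Hnrnph1 and Hnrnph3.

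Islands at hnRNP starts often also covered the start of another gene. Of the 19 member islands that covered a start, 6 also covered a start of a second protein-coding gene (31.6%), against 8.99% of the 1368 islands covering any protein-coding start. The member islands were also wider, with a median of 3400 bp against 2400 bp, and the part of width in this difference was not tested. The hnRNPs held 5 of the 6. Hnrnpa2b1 and Cbx3, a heterochromatin protein gene, start 722 bp apart in opposite directions, and their shared promoter region is known for its open chromatin. Hnrnpk shared its island with Rmi1 (starts 131 bp apart), Hnrnph3 with Pbld2 (663 bp), Hnrnpdl with Enoph1 (772 bp) and Srsf2 with Mfsd11 (906 bp), each pair transcribed away from each other. At Hnrnpd the start of 4930524J08Rik lay 3 bp away on the other strand. These islands cannot be assigned to 1 gene of the pair. When each island was given only to the gene nearest its middle, Srsf2, Hnrnpdl and Hnrnph3 lost theirs, and 26 of the 50 genes kept one, against 14% of all genes under that rule. The fourth gene to lose its island was Srrm2. The islands of Srsf3 and Hnrnpa3 also covered the start of a lncRNA gene on the other strand, Gm16196 at 37 bp and Gm39859 at 322 bp.

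The polypyrimidine tract binding proteins repress exons by binding pyrimidine-rich RNA. Ptbp1, the form of progenitors and non-neuronal cells, had 70 reads (54.6 to 88.4; chr10:79852856-79855055) across its start. Ptbp3 had 64 reads (49.3 to 81.7) across its higher-coordinate end. Ptbp2, the form that rises in neurons, had no island, and the nearest lay 873 kb away.

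Neural and tissue-specific regulators had islands at 10 of 14 genes. Gene-end islands were present at 5 of the 14, beside 5 of 13 SR and Tra2 genes and 9 of 17 hnRNPs (9.81% of all genes). Interior islands were present at 9 of the 14, beside 1 of 13 and 1 of 17 (6.7% of all genes). Of the 12 regulators with an annotated start, 4 had an island there, against 9.53% of all genes with such an entry. A long gene has more room for an island. The 14 genes had a median length of 156.6 kb, against 10.7 kb for the SR and Tra2 genes and 12.2 kb for the hnRNPs. Per 100 kb of gene with its 5 kb margins they held 0.498 islands, against 2.58 for the SR and Tra2 genes and 2.38 for the hnRNPs. All 5 members over 200 kb, Rbfox1, Celf2, Rbfox3, Celf4 and Rbfox2, had an interior island, against 41% of all protein-coding genes of that length.

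**Figure D3:**
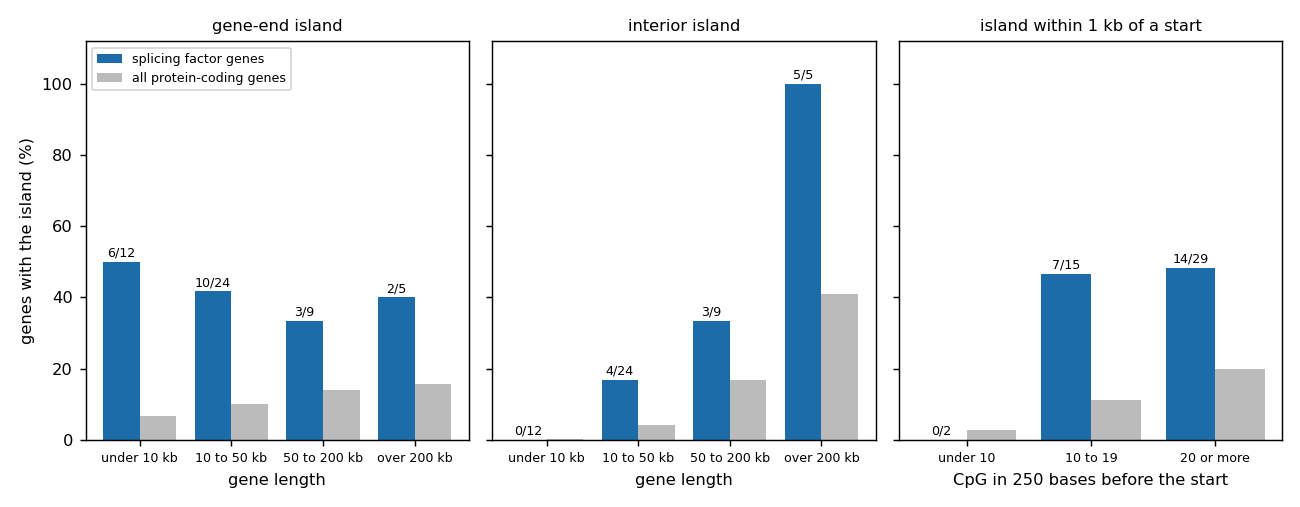
Share of genes with a gene-end island (left) or an interior island (middle) by gene length, and with an island within 1 kb of a start by the number of CpG before it (right), in percent, for the splicing factor genes (blue, with counts above the bars) and all protein-coding genes (grey). The share with an interior island rises with length in both, and the members' bars stand above the grey bars in every class that holds 3 or more members, apart from interior islands in genes under 10 kb.

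Read by length class, any island was present at 6 of 12 members under 10 kb (8.75% of all genes of that length), 14 of 24 of 10 to 50 kb (15.5%), 5 of 9 of 50 to 200 kb (28.3%) and all 5 over 200 kb (48.1%). In the same order, gene-end islands were present at 6 of 12 (6.56%), 10 of 24 (10.1%), 3 of 9 (14%) and 2 of 5 (15.7%). Interior islands were present at none of the 12 shortest (0.323%), 4 of 24 (3.99%), 3 of 9 (16.8%) and all 5 of the longest (41%). The members' gene-end share stood above that of all genes in each of the 4 length classes.

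Celf4, a neuronal CUG-binding protein, had 4 islands. Those at its ends held 137 reads (115 to 162) and 100 reads (81.4 to 122), and the interior ones held 58 and 56. Mbnl2, a muscleblind protein that controls developmental exons in brain, had 120 reads (99.5 to 143.5; chr14:120275179-120278778) across its start. A second island, of 92 reads (74.2 to 113), lay 20.9 kb downstream of that start. Nova1, a neuronal splicing regulator that binds clustered short motifs in RNA, had 115 reads (94.9 to 138; chr12:46817014-46820413) centred 53.5 bp downstream of its start. Its relative Nova2 had only an interior island of 63 reads (48.4 to 80.6; chr7:18949052-18950851), 23.2 kb from the start. Elavl3, an Hu protein of neurons, had 93 reads (75.1 to 114; chr9:22048757-22052356) across its start and 71 in an island 14.5 kb downstream. Elavl4 had 48 reads (35.4 to 63.6; chr4:110285596-110286795) beside its innermost start. That stretch of Elavl4 is poor in CpG, with 3 in the 250 bases before the start. Elavl1, the member of the family expressed in all tissues, and Elavl2 had no island.

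The longest genes carried scattered interior islands of moderate count. Rbfox1, which spans 1528 kb, had 3 islands of 51, 52 and 48 reads. The nearest to a start lay 10.7 kb downstream of the inner start (chr16:7080508-7081707). Its 0.195 islands per 100 kb compare with 0.239 over all 989 protein-coding genes over 200 kb. Celf2, which spans 857 kb, had 4 islands of 64, 72, 72 and 39 reads, none within 7 kb of any of its 5 annotated starts, or 0.462 per 100 kb. Rbfox3, the gene of the neuronal nuclear antigen NeuN, had islands of 64 and 72 reads on either side of its 1 annotated start, which lies inside the gene, 21.0 and 30.8 kb from it. The latter also covered the start of the lncRNA gene Gm11750. Rbfox2, the more widely expressed member of the family, had 54 reads near its lower-coordinate end and 57 reads 73.8 kb inside. The intervals of the islands of 51 and 48 reads at Rbfox1 and of 39 reads at Celf2 lay below the list's median of 68 reads, and the others of these genes included it. These counts go with width: among islands of the same width, those of 51, 48 and 39 reads were at percentiles 18.3, 55.2 and 65.9. The island of 39 reads was only 0.8 kb wide. At Celf2 the island of 72 reads over 3.6 kb had the lowest count of the 137 islands of its width. Celf1, Mbnl1, Elavl1 and Elavl2 had no island within 5 kb, with the nearest 909.7, 390.3, 286 and 117 kb away.

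**Figure D4:**
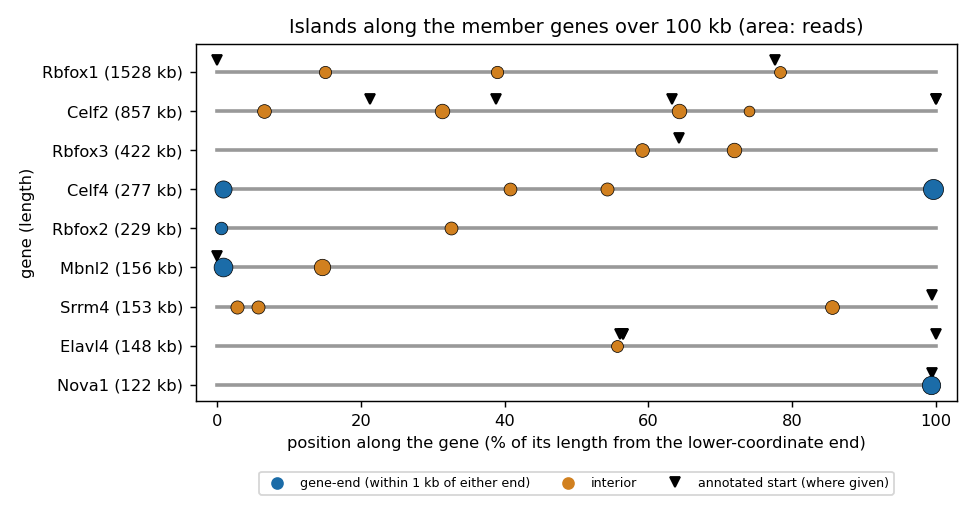
Position of islands along the 9 member genes over 100 kb that had one, in percent of the gene's length from its lower-coordinate end (x axis), 1 line per gene (y axis, with its length in kb); the area of a point follows its reads and triangles mark annotated starts where given. Islands of Nova1 and Mbnl2 lie at a start, that of Elavl4 beside an inner start, and those of Rbfox1, Celf2 and Rbfox3 away from their starts.

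SR-related matrix proteins bridge splicing complexes. Srrm4, the neural factor that drives inclusion of microexons, had 3 interior islands of 59, 58 and 65 reads (44.9 to 76.1, 44 to 75 and 50.2 to 82.8). The first pair lay 3524 and 7724 bp inside the end away from the start, and the last 20.4 kb downstream of the start. Srrm2, a core component of nuclear speckles, had only a flanking island of 74 reads, 2493 bp beyond the gene, which covered the start of Elob. Srrm1 had none. No gene of this class had an island at its start. Of the 15 interior islands in genes with an annotated start that lay over 1 kb from every one of them, the distance ran from 7.25 kb at Celf2 to 589 kb at Rbfox1, and the median count was 64 reads.

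In the other lists of splicing genes the shares were lower. Of 31 core spliceosome genes, 6 had an island within 5 kb (19.4%, against 16.9% of all genes), each at a gene end: U2af2, which recognises the polypyrimidine tract, had 105 reads, Snrpd3 94 and Snrpb 71, both Sm proteins. Counted within 5 kb, the share of the core spliceosome genes was close to that of all genes. For gene-end islands alone it was 6 of 31, against 9.81% of all genes. Of 6 kinases that phosphorylate SR proteins, 3 had one (50%): Clk3 with 74 reads, Clk4 with 64 and Srpk2 with 59 in its interior. Of 26 other RNA-binding regulators, 9 did (34.6%), among them the C-rich RNA binder Pcbp1 with 104 reads and the helicase Ddx5 with 100. Both shares were above the 16.9% of all genes, that of the kinases on 6 genes only. The other RNA-binding regulators include relatives of members: Celf3 and Celf6 had an island, and Celf5, Mbnl3 and Srrm3 had none. The difference between these lists and the 50 genes was not tested.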

How the data were processed

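Brg1 ChIP and input libraries were made from SmoM2 medulloblastoma; the labels do not say whether animals were pooled. The authors deposited 1 island list, with a whole number per island that was read as its read count, since it rises with width and the file has no header. Per the submitters' processing notes, SICER 1.1, Picard 1.127 and Bowtie 0.12.7 were used, and mm10 and mm9 are both named as builds. Settings of the caller: not given in the sources used here, nor is its control. Coordinates were taken as mm10 and are printed 1-based. Because counts grow with width, reads per 200 bp and ranks within width are given too.

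Islands were assigned to every gene whose RefSeq extent plus 5 kb they met by at least 1 bp, and to starts from RefSeq's promoter sequences (GRCm38.p6, 46 of 50 genes matched), with Python 3.11.15 and pandas 2.3.3. The assignment was tested on simulated islands. With 1 library no test between samples exists, and no p-value is given; shares are set beside those of all protein-coding genes. The members, lists and alternatives were chosen with earlier results of these data known, and the classes by CpG after seeing them. Values are given for members by reads within role, members with the most islands, members with interior islands only, and the leading 3 genes of each other list, of which 1 is not reported here. Of these lists, Qki was not matched. Of 3 genes tied for the last 2 promoters shown, Celf2 was left out.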

Additional observations from a re-analysis of the deposited data

How the results depend on the processing

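Each of 32 alternative values was set beside its main value, and 25 stayed within 1.5 times the count or, for the median of the highest count per gene (76.5 reads), within its order-statistic 95% interval of 70 to 100. With only the islands at or above the 75th percentile of reads, 13 genes had an island (5.21% of all genes), 12 a gene-end island (2.8%), 2 an interior island (2.08%) and 12 a start island (2.66%, added after seeing the data), and the median was 117 reads. With the islands of median count or more, 6 had an interior island (3.86%). When the middle of the island had to lie within 1 kb of an end, 13 had a gene-end island (7.33%). Under that rule 16 had an interior island (8.11%), since islands with their middle further inside then counted as interior. The gene-end and interior split thus depends on whether the edge or the middle of an island is used. The falls in these settings come by construction, since fewer islands enter or the window is narrower. The gene-end count was 20 with a distance of 500 bp (9.28% of all genes), 22 with 2 kb (10.7%) and 25 with 5 kb (13.1%, added after seeing the data). No paired analysis was possible because there was 1 ChIP library, and no replicate could be left out. Depth limits what can be said of the 20 genes without an island: the reads there are not in the list.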
